A study of Mus musculus with 24 samples.

Results

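The first day of osteoclast differentiation was examined by comparing bone marrow-derived macrophages (BMMs) after 24 h with RANKL against BMMs at 0 h, before RANKL was added. Each time had 6 Illumina bead arrays, which gives 12 of the 24 arrays of the time course, and 9917 genes were tested. The cells came from the femurs and tibias of male C57BL/6 mice aged 5 weeks. Floating marrow cells received M-CSF (30 ng/mL) during 72 h of preculture. Attached cells were then taken at once, or they got RANKL (100 ng/mL) beside the same dose of M-CSF during 24 h. No BMMs held for 24 h in M-CSF alone are among the samples, so RANKL and the extra day in culture cannot be told apart. Whether replicates were separate mice or cultures is not stated, so the p-values reflect variation among these samples that could be technical only.

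RANKL is the cytokine of the TNF family that turns macrophage precursors into osteoclasts, the cells that resorb bone. Its receptor RANK recruits TRAF adaptors, which activate the canonical and the alternative NF-kB pathways and MAP kinases, and these induce FOS and then the master factor NFATC1. Macrophages also hold transcriptional repressors of this program, which have to be lost before differentiation goes on. RANKL can induce interferon beta, which feeds back on the precursors, and precursors are known to divide before they leave the cell cycle and fuse.

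Macrophage markers were detected, but they did not move together. Of the 21 tested, 5 were higher and 11 lower at 24 h (median -0.21), against 29.2% and 37.8% of all genes. Lyz2, the macrophage and granulocyte lysozyme gene, had a log2 signal between 14.65 and 14.84 at 0 h and between 14.68 and 14.80 at 24 h. Adgre1, which encodes the macrophage surface protein F4/80, lay between 12.16 and 12.32 at 0 h and between 12.37 and 12.68 at 24 h. Its difference of 0.27 did not pass with the authors' processed values, median scaling or 75th percentile scaling. RNA of other marrow cells was present too. All 14 tested neutrophil markers were lower at 24 h, where 37.8% of all genes were, by a median log2 difference of -1.35, and their summed signal was 60446 to 65725 at 0 h and 26447 to 27912 at 24 h. S100a9, a calprotectin subunit gene, fell by 1.56 and Ctsg, the cathepsin G gene of granulocyte precursors, fell by 1.63. The 6 tested erythroid and megakaryocyte markers were lower as well, with summed signals of 2592 to 2885 at 0 h and 1282 to 1349 at 24 h. B cell markers passed as lower in 2 of 3, T and NK cell markers in 2 of 3, mast cell and basophil markers in 3 of 5, dendritic cell markers in 1 of 4 and stromal markers in 2 of 4, and none of these 19 passed as higher. These small counts stand against 37.8% of all genes lower. In bulk RNA, fewer cells of a type and less RNA per cell cannot be told apart, and the part of these cells in the changes described here was not tested.

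A gene was called higher or lower where its limma p-value, adjusted over all 9917 genes, was under 0.05. At 24 h 2898 genes were higher, 29.2% of those tested, and 3749 were lower, 37.8%. With a change of at least 1.5-fold as well, 822 genes were higher (8.29%) and 963 lower (9.71%). The 6 arrays at 24 h lay above all 6 at 0 h for 2032 genes (20.5%) and below them all for 2605 (26.3%). Each such separation has an exact two-sided permutation p of 0.00216, the smallest that 6 against 6 arrays can give. The median log2 difference of all genes was -0.05. With scaling to the 75th percentile of each array this median was -0.13, and the calls split into 2261 higher and 4763 lower, so that 32.2% of calls were higher in place of 43.6%. Large changes were more often rises, with 38 genes at least 4-fold higher and 14 at least 4-fold lower. The median SD between arrays of a time was 0.098 on the log2 scale at 0 h and 0.094 at 24 h.

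Mycl, which encodes the MYC family factor L-MYC, showed the largest rise of all genes tested. Its log2 signal lay between 6.66 and 7.05 (median 6.87) at 0 h, where it was detected on 0 of 6 arrays, and between 11.31 and 11.49 (median 11.42) at 24 h. This is at least 20.3-fold higher (adjusted p = 1.41e-35, limma). Such a bound takes, for each 0 h array, the dimmest signal called detected in place of the probe's signal unless the latter was higher. Cxcl10, an interferon-inducible chemokine gene, went from 6.77 to 7.11 (median 7.03) at 0 h to 11.28 to 11.49 (median 11.45), a log2 difference of 4.44 ± 0.06 (SE). Its second probe rose by 1.91. Vegfc, which encodes a growth factor for lymphatic vessels, was at least 10.1-fold higher and Cav1, the caveolin gene, at least 6.74-fold higher, both detected on no array at 0 h and on all 6 at 24 h. Traf1, Scin (scinderin, an actin-severing protein), Jdp2 and Cd207 (langerin, a lectin) rose by 3.48, 3.35, 2.68 and 2.56. At 0 h Scin was detected on 2 of 6 arrays, Cd207 on 1 of 6 and Cxcl10 on 3 of 6. The other rises among the 15 largest were those of Btbd11 and of the interferon-induced genes Ifit3, Oasl1, Ifit2, Isg15, Rsad2 and Oasl2. Btbd11 was at least 6.5-fold higher by its brightest probe, but its second probe changed by -0.07.

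The largest fall was that of Rapsn, the gene of rapsyn, which clusters acetylcholine receptors in muscle. Its log2 signal lay between 11.02 and 11.13 (median 11.09) at 0 h and between 7.98 and 8.35 (median 8.15) at 24 h, a difference of -2.93 ± 0.06 (adjusted p = 1.25e-31, limma). Id1 followed with -2.73 and Cd33, a sialic acid receptor gene of myeloid cells, with -2.59 (second probe -1.58). Cnrip1 (second probe -1.53), Spsb4, Hal (histidine ammonia-lyase, detected on 2 of 6 arrays at 24 h), the kallikrein gene Klk1b11 and the chitinase-like gene Chil1 had differences of -2.57, -2.33, -2.33, -2.24 and -2.20. Genes of coagulation factors were among the 15 largest falls, F13a1 (factor XIII A chain) with -2.14 and F10 (factor X) with -2.01. Kit, the stem cell factor receptor gene of early progenitors and mast cells, fell by 1.99, and Retnlg, which is one of the neutrophil markers, by 2.11. Tmem154, Aatk and Ndrg1 fell by 2.09, 2.02 and 1.91.

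Levels at the later times are given as a description, without a test. Cd33 had mean log2 signals of 10.37, 7.78, 10.28 and 9.70 over the 4 times in order. The means of Aatk, a kinase gene, at the same times were 11.41, 9.39, 11.61 and 11.61, and those of Cnrip1 11.52, 8.95, 12.54 and 12.03. Mycl was back at a mean of 7.65 at 48 h and 6.96 at 72 h after 11.40 at 24 h. For these 4 genes the 24 h mean lay farthest from the means of the other times.

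**Figure D1:**
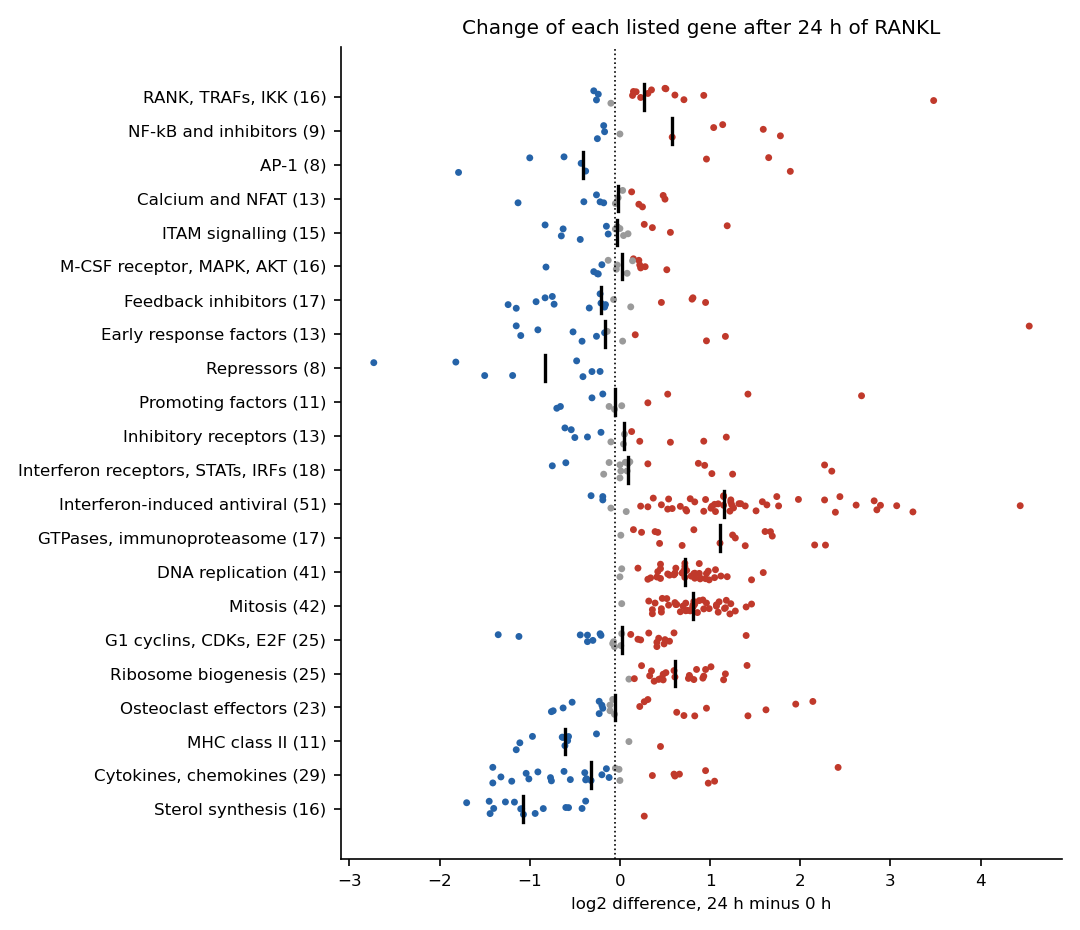
Log2 difference between 24 h and 0 h (x axis) of every tested gene of 22 lists, with the number of genes in brackets, where red points passed as higher, blue as lower and grey did not pass an adjusted p of 0.05 (limma), black bars are list medians and the dotted line is the median of all genes, -0.05. Antiviral, DNA replication, mitosis and ribosome biogenesis genes lie mostly to the right, and repressor and sterol genes to the left.

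Transcripts of the RANK pathway mostly rose. Of 16 tested genes of the receptor, its TRAF adaptors, the IKK complex and their regulators, 12 were higher, 3 were lower and 1 did not pass. Over all genes 29.2% were higher and 37.8% lower. At least 1.5-fold higher were 4, against 8.29% of all genes. Inhibitors are counted among the 16, such as Tnfaip3, which fell, and Birc2, which rose. The list median was 0.27. Tnfrsf11a, the gene of RANK itself, lay between 9.36 and 9.60 (median 9.48) at 0 h and between 10.21 and 10.54 (median 10.46) at 24 h, a log2 rise of 0.93 (adjusted p = 5.76e-15, limma). Its mean at 48 h was 9.04 and at 72 h 8.82, both under the 0 h mean of 9.48. Traf1, an NF-kB target gene whose product modulates TRAF2 signals, went from 7.36 to 7.55 (median 7.47) to 10.80 to 11.11 (median 10.93), 11.2-fold. Traf1 stayed at a mean of 10.00 at 48 h and 9.97 at 72 h.

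Map3k14, the gene of the kinase NIK that starts the alternative NF-kB pathway, was 1.53-fold higher. Birc2, whose product cIAP1 is part of the ligase that degrades NIK, was 1.43-fold higher, and Birc3, the cIAP2 gene, was detected on 0 of 6 arrays at 0 h and 3 of 6 at 24 h, which sets a bound of at least 1.03-fold. Traf2, also detected on no array at 0 h, was at least 1.19-fold higher. Traf6, the adaptor gene that osteoclast formation needs, moved the other way, from 9.77 to 10.01 (median 9.85) to 9.46 to 9.67 (median 9.58). Its fall of 0.29 left the groups without overlap. Tnfaip3, the gene of the NF-kB inhibitor A20, fell by 0.26, with overlapping groups.

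Among 9 tested NF-kB subunits and inhibitors, 5 were higher and 3 lower (29.2% and 37.8% of all genes), the median was 0.58, and 4 were at least 1.5-fold higher (8.29% of all genes). Nfkbia, which encodes the inhibitor IkB alpha and is itself an NF-kB target, lay between 10.40 and 10.77 (median 10.48) at 0 h and between 12.15 and 12.51 (median 12.25) at 24 h. It rose 3.43-fold (adjusted p = 4.77e-22, limma), and its second probe by 0.94 on the log2 scale. Nfkb2 and Relb, the pair of subunits of the alternative pathway, went from 7.47 to 7.68 (median 7.61) to 9.09 to 9.31 (median 9.18) and from 8.32 to 8.46 (median 8.42) to 9.46 to 9.65 (median 9.56). Those are rises of 3.01-fold and 2.21-fold. Nfkbie, the IkB epsilon gene, rose 2.05-fold and Bcl3, a coactivator of the p50 and p52 homodimers, rose by 0.58. The canonical subunit genes Rela and Rel did not share these rises, with differences of -0.17 for Rela (groups overlapping) and -0.18 for Rel. Nfkb1, another canonical subunit gene, had no probe under its name and was not measured. The call of Rel was lost with the authors' processed values and without 0 h replicate 5 or 24 h replicate 3. Nfkbib fell by 0.25, and Nfkbiz lay between 7.82 and 8.12 at 0 h and 7.85 and 8.11 at 24 h (adjusted p = 0.991, limma). Of the 3 genes that were lower, Rela, Rel and Nfkbib, only 1 had groups without overlap.

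AP-1 factors divided. Fos, which is required for osteoclast formation, lay between 10.12 and 10.53 (median 10.29) at 0 h and between 11.84 and 12.34 (median 12.25) at 24 h. Fosl2, the FRA2 gene, went from 9.47 to 9.59 (median 9.52) to 11.10 to 11.26 (median 11.16), a rise of 3.14-fold (adjusted p = 8.12e-26, limma), and Junb rose 1.95-fold. The other 5 of the 8 tested fell, so that the list median was -0.41. Over all genes 29.2% were higher and 37.8% lower. Atf3, a stress-induced repressor, lay between 10.94 and 11.30 (median 11.15) at 0 h and between 9.23 and 9.49 (median 9.34) at 24 h, 3.47-fold lower. Batf was 2.00-fold lower, Jun 1.54-fold, Batf3 1.35-fold and Jund 1.31-fold. The 24 h arrays lay clear of the 0 h arrays for all 8 genes, where 20.5% of all genes were higher and 26.3% lower without overlap. Fos was under its 0 h mean of 10.31 at 48 h (9.30) and 72 h (9.89), whereas Atf3 was above its 0 h mean of 11.14 (11.49 and 11.79).

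**Figure D2:**
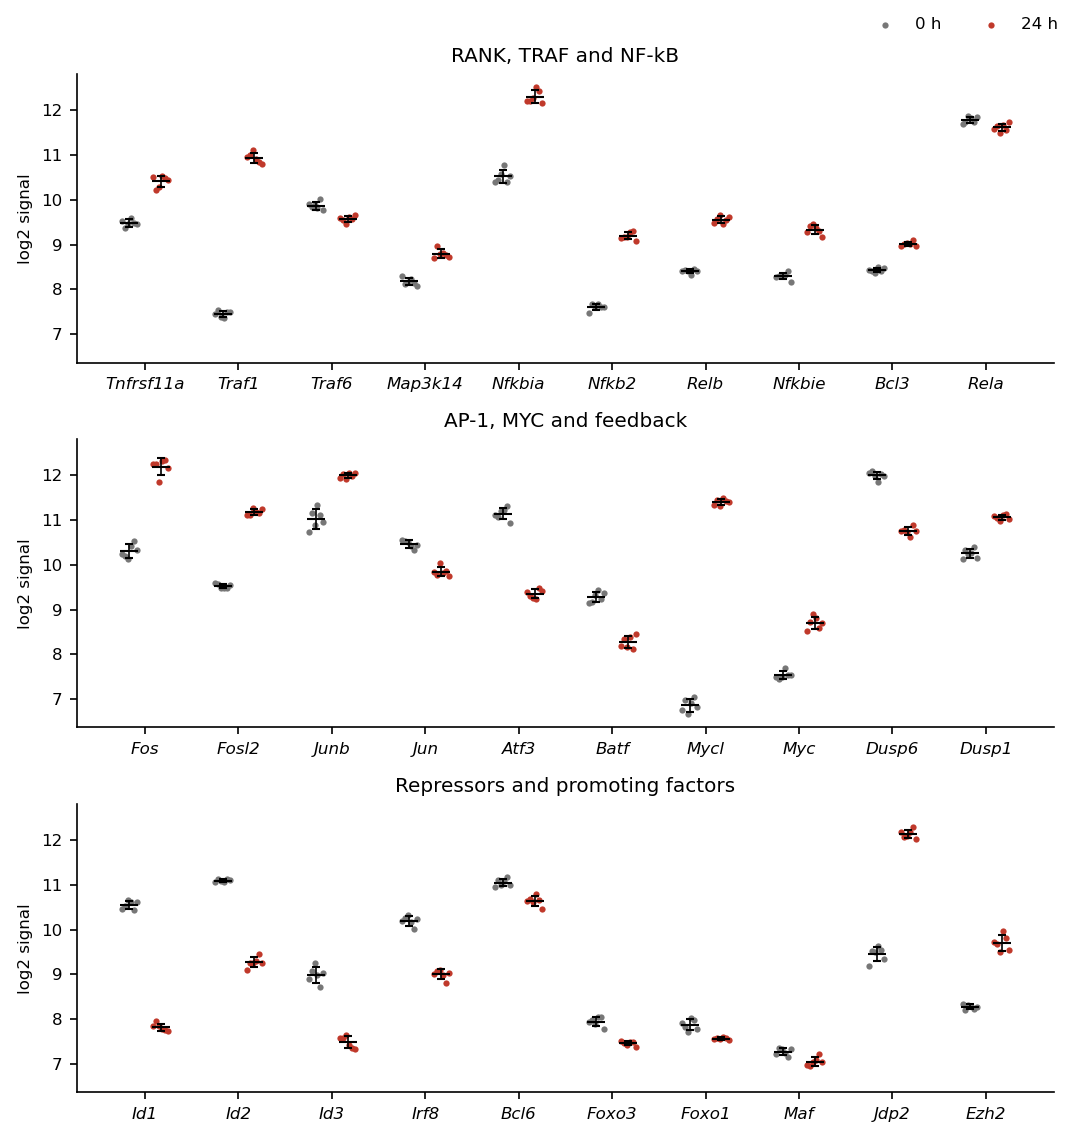
Normalized log2 signal (y axis) of 30 named genes on each of the 6 arrays at 0 h (grey) and 24 h (red), with black bars for the mean and SD of the 6 arrays. The groups are separate except for Rela and Maf; Mycl goes from a median of 6.87 to 11.42 and Id1 from 10.57 to 7.82.

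Of 13 calcium and NFAT genes 5 were higher and 5 lower, shares near the 29.2% and 37.8% of all genes, with 0 at least 1.5-fold higher and 1 at least 1.5-fold lower. Nfat5, which responds to osmotic stress, rose 1.40-fold, next to a rise of Nfatc1 by 0.50. Camk1, a calmodulin-dependent kinase gene, was the one past 1.5-fold, from 12.99 to 13.24 (median 13.09) to 11.82 to 12.12 (median 11.97). Among 15 genes of ITAM signalling, which costimulates RANK, 4 were higher and 6 lower, near the 29.2% and 37.8% of all genes. Src, the kinase gene that ruffled border formation needs, rose 2.28-fold (adjusted p = 2.22e-21, limma), from 7.86 to 8.16 (median 8.09) to 9.17 to 9.33 (median 9.26), and Btk 1.47-fold. Tec, Vav3 and Trem2, a kinase, an exchange factor and a coreceptor, were 1.78-fold, 1.57-fold and 1.55-fold lower, and the adaptor gene Tyrobp fell by 0.44 with overlapping groups.

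Of 16 genes around the M-CSF receptor, RAS, MAP kinases and AKT, 6 were higher and 5 lower, near the shares of all genes (29.2% and 37.8%), with a median of 0.03. Csf3r, the G-CSF receptor gene of granulocytes, was 1.76-fold lower, and the neutrophil markers fell in the same arrays, as given above. Csf2ra, a subunit gene of the GM-CSF receptor, was 1.43-fold higher. Csf1r, the M-CSF receptor gene, lay between 12.19 and 12.42 at 0 h and 12.05 and 12.38 at 24 h by its brightest probe (adjusted p = 0.656, limma), while its second probe rose by 0.51.

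Of 17 inhibitors that limit signalling 11 were lower and 4 higher (median -0.21), against 37.8% lower and 29.2% higher over all genes. Dusp6, which encodes the phosphatase that inactivates ERK and is induced by ERK, lay between 11.84 and 12.09 (median 12.01) at 0 h and between 10.62 and 10.89 (median 10.76) at 24 h. It fell 2.36-fold (adjusted p = 2.98e-22, limma), and its means were lower still at 48 h (9.47) and 72 h (9.33). Dusp7, Dusp16 and Dusp3, other MAP kinase phosphatase genes, were 1.78-fold, 1.68-fold and 1.66-fold lower. Rgs1, which shortens signals of G protein-coupled receptors, and Tsc22d3, the glucocorticoid-induced leucine zipper gene, were 2.22-fold and 1.91-fold lower. The rises were those of Dusp5 (1.93-fold), Dusp1 (1.75-fold), Spred1, an inhibitor of RAS signalling (1.74-fold), and Socs2 (1.38-fold). Dusp1 had means of 10.26, 11.06, 10.12 and 10.31 over the 4 times. Socs3 fell by 0.22 with overlapping groups, a call lost with median scaling and with the authors' processed values.

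Early response transcription factors, which many stimuli induce within minutes, were higher in 4 of 13 cases and lower in 7 after a day, against 29.2% and 37.8% of all genes. Besides Mycl, Myc rose from 7.45 to 7.69 (median 7.52) to 8.52 to 8.89 (median 8.71), 2.25-fold (adjusted p = 2.12e-19, limma), and fell under its 0 h level at both later times, with means of 6.84 and 6.86. Btg1, an antiproliferative gene, rose 1.94-fold. Klf2, a factor that keeps macrophages quiescent, was 2.22-fold lower, Ier3 2.15-fold, Egr2 1.88-fold and Zfp36, the gene of tristetraprolin, which destabilizes cytokine mRNAs, 1.43-fold. Egr2 was low only at 24 h, with means of 9.09, 8.18, 10.42 and 11.26 over the 4 times.

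All 8 tested repressors of osteoclast differentiation were lower at 24 h, where 37.8% of all genes were lower. The list median was -0.84, and 4 were at least 1.5-fold lower against 9.71% of all genes. The arrays did not overlap for 7, where 26.3% of all genes were lower without overlap. Id1, whose product blocks helix-loop-helix factors, lay between 10.43 and 10.66 (median 10.57) at 0 h and between 7.74 and 7.96 (median 7.82) at 24 h, 6.63-fold lower (adjusted p = 2.96e-30, limma). Id2 went from 11.06 to 11.12 (median 11.10) to 9.11 to 9.46 (median 9.26) and Id3 from 8.71 to 9.25 (median 9.01) to 7.34 to 7.64 (median 7.51), falls of 3.52-fold and 2.83-fold. The 3 Id genes thus had the largest falls of the list.

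Irf8, an interferon regulatory factor of the macrophage lineage that represses NFATC1, was 2.28-fold lower, from 10.01 to 10.32 (median 10.21) to 8.82 to 9.11 (median 9.03). Foxo3, Bcl6 and Foxo1, which encode forkhead factors and a zinc finger repressor, were 1.40-fold, 1.33-fold and 1.24-fold lower. Maf fell by 0.22 with overlapping groups. Later levels went apart within the list. Id1 stayed low with means of 6.87 at 48 h and 6.86 at 72 h, under its 24 h mean of 7.82, and so did Id3 (7.33 and 7.25 after 7.49). Irf8 was at 10.62 at both later times, above its 0 h mean of 10.20, and Id2 was at 10.53 and 10.74 against 11.09 at 0 h and 9.28 at 24 h. Under the methods' t-test, Bonferroni adjustment left 5 of the 8, without Bcl6, Foxo1 and Maf. Neutrophil markers fell in the same arrays, to a summed signal of 26447 to 27912 from 60446 to 65725.

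Of 11 factors and chromatin enzymes that promote osteoclast differentiation 4 were higher and 4 lower, near the 29.2% and 37.8% of all genes. Jdp2, an AP-1 partner that RANKL signalling needs in mice, lay between 9.18 and 9.63 (median 9.52) at 0 h and between 12.03 and 12.30 (median 12.12) at 24 h, a 6.42-fold rise (adjusted p = 1.55e-28, limma) that was gone at 72 h (mean 8.93). Ezh2, the histone H3 lysine 27 methyltransferase gene, whose level also follows cell division, rose 2.68-fold, and its means at 48 h and 72 h were 7.57 and 7.47 against 8.28 at 0 h. Ppargc1b, a coactivator of mitochondrial genes, was 1.45-fold higher. Cebpa and Tfe3 were 1.63-fold and 1.58-fold lower. Spi1, which encodes the myeloid master factor PU.1, lay between 11.03 and 11.45 at 0 h and 11.22 and 11.31 at 24 h (adjusted p = 0.794, limma).

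Of 13 inhibitory receptor and phosphatase genes 5 were higher and 5 lower, where 29.2% and 37.8% of all genes were. Ptpn22, the gene of a tyrosine phosphatase that acts on SRC and SYK family kinases, rose 2.27-fold, Dok1, an adaptor that dampens RAS, 1.91-fold, and Axl, a receptor that limits inflammation, 1.48-fold. Inpp5d, the SHIP1 gene, was 1.53-fold lower and Cd200r1 1.41-fold lower. The inhibitory receptor genes Cd300lf, detected on no array at 24 h, and Lilrb4a were lower by at least 1.29-fold and by 1.28-fold.

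Most interferon-induced antiviral genes rose. Interferons act through JAK kinases on a transcription factor complex that holds IRF9 and binds the interferon-stimulated response element, abbreviated ISRE, in the promoters of their targets. Of 51 tested antiviral genes 46 were higher, 3 lower and 2 did not pass, and 39 were at least 1.5-fold higher, where 8.29% of all genes were. The list median was 1.15. The arrays did not overlap for 44 of the genes, all of them higher, against 20.5% of all genes. Per array, the median difference of the list from the 0 h means lay between 1.14 and 1.21 at 24 h, while the 0 h arrays lay between -0.02 and 0.02.

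The ISRE core was sought as 2 copies of GAAA with any 2 bases between them. It was searched on both strands in the window from 250 bases before to 50 bases after each gene's start (RefSeq, GRCm38.p6), with overlapping matches allowed, and was found for 18 of 38 antiviral genes that have a promoter entry, 47.4%, and for 8 of 15 GTPase and immunoproteasome genes, 53.3%. All promoters of the same length hold it in 3.99% and those of the genes tested in 3.90%. A match is a description and not a binding site. The stretches below were chosen among strongly changed genes that hold a match, and genes without a match are not shown. They are read on the gene's strand from 5′ to 3′, with motif matches in capitals. They lie at chr4:156200845-156200926 (Isg15, minus strand), chr19:34583343-34583446 (Ifit3, plus strand), chr5:92349063-92349132 (Cxcl10, minus strand), chr12:26456533-26456602 (Rsad2, minus strand), chr3:142620574-142620643 (Gbp2, plus strand) and chr3:142559969-142560044 (Gbp3, plus strand).
Isg15: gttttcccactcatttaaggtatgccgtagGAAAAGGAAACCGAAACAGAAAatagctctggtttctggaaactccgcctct
Ifit3: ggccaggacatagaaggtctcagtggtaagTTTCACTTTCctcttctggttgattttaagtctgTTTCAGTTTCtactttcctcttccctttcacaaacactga
Cxcl10: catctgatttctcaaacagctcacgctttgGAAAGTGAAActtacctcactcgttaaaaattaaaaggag
Rsad2: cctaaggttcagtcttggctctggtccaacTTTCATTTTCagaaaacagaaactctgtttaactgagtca
Gbp2: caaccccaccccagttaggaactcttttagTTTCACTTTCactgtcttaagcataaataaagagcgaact
Gbp3: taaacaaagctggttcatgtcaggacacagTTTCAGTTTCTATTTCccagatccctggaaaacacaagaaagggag

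Isg15 holds 3 overlapping matches, which start 78, 72 and 66 bases before the gene's start, and Ifit3 holds 2, of which the first starts 156 bases before it. The matches of Gbp2 and Gbp3 start 59 and 45 bases before the start. Lgals9, one of the 3 antiviral genes that fell, also holds matches, so the motif was not limited to genes that rose.

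Ifit3, whose product binds viral RNA together with other IFIT proteins, lay between 9.14 and 9.38 (median 9.34) at 0 h and between 12.42 and 12.77 (median 12.56) at 24 h, 9.53-fold higher (adjusted p = 2.53e-34, limma). Isg15, a ubiquitin-like protein gene, went from 8.11 to 8.17 (median 8.12) to 10.76 to 11.37 (median 10.95), 7.22-fold. Rsad2, the viperin gene, rose 7.08-fold, from 9.24 to 9.36 (median 9.27) to 11.97 to 12.17 (median 12.11). These genes were well detected before RANKL, on all 6 arrays.

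Members of the 2′-5′ oligoadenylate synthetase family rose with them. Oasl1, whose product restrains Irf7 translation in mice, rose 8.39-fold, Oasl2 6.15-fold (log2 difference 2.62, second probe 1.73) and Oas2 5.43-fold. Ifit2 rose 7.40-fold and Cmpk2, a mitochondrial nucleotide kinase gene next to Rsad2, 5.23-fold. Ddx58, the gene of the RNA sensor RIG-I, rose 4.84-fold, from 7.55 to 7.97 (median 7.80) to 9.92 to 10.17 (median 10.08). Mx1, a dynamin-like restriction factor, was detected on 0 of 6 arrays at 0 h and all 6 at 24 h, at least 1.59-fold higher. The 3 members that fell did so by little and with overlapping groups, Lgals9 by 0.32 and Ifi27 and Ifi27l2a by 0.19 each. Ifitm2 (-0.10, adjusted p = 0.174) and Sp110 (0.07, adjusted p = 0.357) did not pass in limma.

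**Figure D3:**
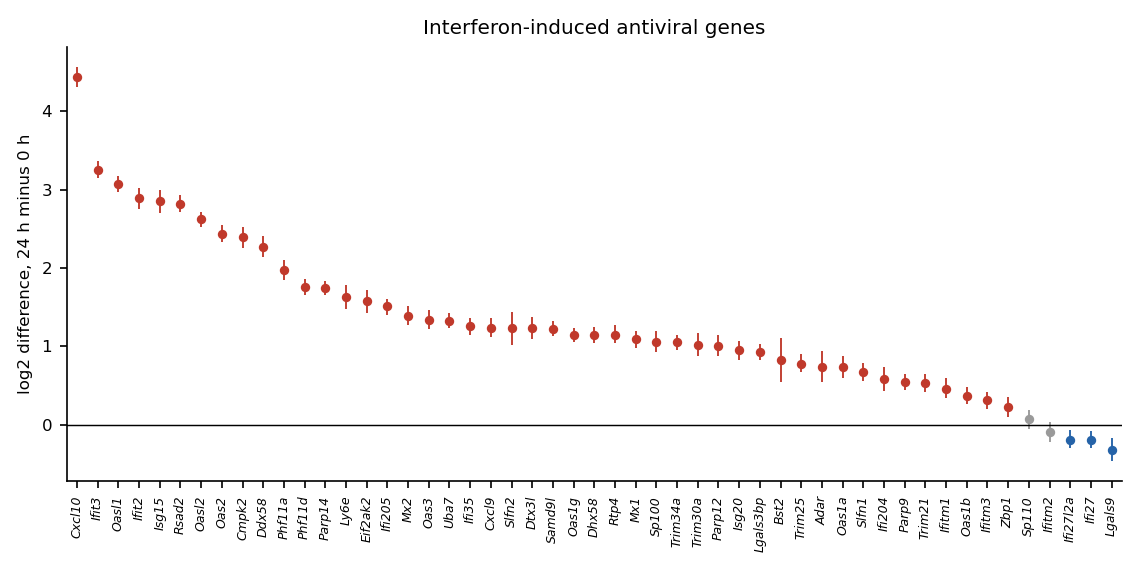
Log2 difference between 24 h and 0 h (y axis) with its 95% confidence interval from limma for 51 interferon-induced antiviral genes, in order of size. Red points passed as higher (46), blue as lower (3) and grey did not pass (2); values run from 4.44 for Cxcl10 to -0.32 for Lgals9.

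The interferon-gamma-type genes behaved alike. Of 17 tested GTPases and immunoproteasome genes 16 were higher and 0 lower, 11 of them at least 1.5-fold, with a median of 1.11. Over all genes 29.2% were higher and 8.29% at least 1.5-fold higher. Gbp2 and Gbp3, guanylate-binding proteins that attack intracellular microbes, rose 4.85-fold (adjusted p = 8.34e-26, limma) and 4.46-fold, and the median of Gbp2 went from 8.61 to 10.89 without overlap of the arrays. The second probe of Gbp2 rose by 0.79. Gbp7, detected on no array at 0 h, was at least 2.89-fold higher, and the immunity-related GTPase genes Ifi47, Irgm2 and Igtp rose 3.19-fold, 3.05-fold and 2.63-fold. B2m, the light chain gene of MHC class I, lay between 14.44 and 14.67 at 0 h and between 14.41 and 14.62 at 24 h (adjusted p = 0.929, limma), and with 75th percentile scaling it fell by 0.14.

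Of 18 tested genes of interferon signalling 7 were higher, 2 lower and 9 did not pass, against 29.2% higher and 37.8% lower over all genes. Irf7, the factor that amplifies type I interferon, lay between 7.51 and 7.89 (median 7.75) at 0 h and between 9.93 and 10.23 (median 10.05) at 24 h, 5.11-fold higher (adjusted p = 7.04e-27, limma). Usp18, which removes ISG15 and desensitizes the receptor, rose 4.83-fold, from 9.93 to 10.12 (median 10.01) to 12.16 to 12.35 (median 12.28). Irf1, Irf9 and Stat2 rose 2.03-fold, 1.92-fold and 1.82-fold, and Cgas, the cytosolic DNA sensor gene, 2.37-fold by its brightest probe and by 0.35 on the log2 scale by its second. Those genes are themselves known interferon targets.

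The receptor gene Ifngr2 was 1.24-fold higher, whereas Ifnar2 (-0.18, adjusted p = 0.125), Jak1 (-0.12, adjusted p = 0.135) and Irf3 (0.11, adjusted p = 0.131) did not pass in limma. Ifnar2 passed as lower with the replicate number as a block, with 75th percentile scaling and by its second probe, and Jak1 with array weights and without 0 h replicate 1. Irf5 lay between 11.28 and 11.48 at 0 h and 11.15 and 11.49 at 24 h. The 2 falls were those of Sting1, the adaptor downstream of cGAS, which was 1.68-fold lower, and Irf4, detected on all 6 arrays at 0 h and on none at 24 h, at least 1.29-fold lower. The antiviral list had medians per array between 0.98 and 1.10 above the 0 h means at 48 h and between 0.30 and 0.40 at 72 h. Its summed signal was higher at 48 h (189344 to 202331) than at 24 h (169420 to 179628) and lower at 72 h (128962 to 133431). Rsad2 had means of 11.38 at 48 h and 10.44 at 72 h after 12.10 at 24 h, and Irf7 peaked at 48 h with 10.38 before 8.78.

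Cell division genes rose at 24 h almost without exception. Of 41 tested DNA replication genes 39 were higher and 0 lower, 29 of them at least 1.5-fold, with a median of 0.72, and of 42 mitosis and cytokinesis genes 41 were higher and 0 lower, 32 at least 1.5-fold, with a median of 0.81. Over all genes 29.2% were higher and 8.29% at least 1.5-fold. The 24 h arrays lay above all 0 h arrays for 38 and for 41 genes, against 20.5% of all genes. Summed signals of the replication list were 61226 to 65558 at 0 h and 106438 to 111303 at 24 h, and those of the mitosis list 51165 to 53218 and 92966 to 96870. Elane and Mpo, markers of granulocyte precursors, fell by 0.65 and by 0.35 in the same arrays.

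Mcm10, a replication initiation factor, lay between 10.16 and 10.30 (median 10.22) at 0 h and between 11.78 and 11.90 (median 11.80) at 24 h, 3.01-fold higher (adjusted p = 5.04e-26, limma). Tk1 and Tyms, which make thymidine nucleotides, rose 2.75-fold and 2.08-fold, Tk1 from 10.54 to 10.80 (median 10.63) to 11.99 to 12.36 (median 12.07). Uhrf1, which carries DNA methylation through replication, rose 2.17-fold. Mcm5, a subunit gene of the replicative helicase, went from 12.29 to 12.37 (median 12.34) to 13.35 to 13.45 (median 13.37), 2.07-fold, and Mcm6 and Mcm3 rose 1.93-fold and 1.78-fold. Rfc5, a clamp loader subunit, rose by 1.19, though its second probe changed by -0.12. Pcna, the gene of the sliding clamp, lay between 8.63 and 8.94 at 0 h and between 8.50 and 9.01 at 24 h (adjusted p = 0.974, limma), and Rpa3 between 9.77 and 10.17 and between 9.90 and 10.24 (adjusted p = 0.788).

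E2F factors drive replication genes in the S phase. Their motifs TTTCCCGC and TTTGGCGC, searched on both strands, were found in the promoters of 9 of 34 replication genes with an entry (26.5%). They were found for 1 of 35 mitosis genes (2.86%) and 4 of 18 G1 genes (22.2%), against 1.80% of all promoters and 3.38% of those of tested genes. Among the G1 genes, 2 of 4 called lower and 1 of 9 called higher hold a match. The motifs were thus not limited to genes that rose. Stretches around matches upstream of replication genes that rose are shown on the gene's strand with matches in capitals, from chr1:128359738-128359845 (Mcm6, minus strand), chr8:75109330-75109397 (Mcm5, plus strand) and chr11:98907983-98908050 (Cdc6, plus strand) of RefSeq's GRCm38.p6.
Mcm6: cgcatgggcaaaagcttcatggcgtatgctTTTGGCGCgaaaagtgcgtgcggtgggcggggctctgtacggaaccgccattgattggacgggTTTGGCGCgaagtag
Mcm5: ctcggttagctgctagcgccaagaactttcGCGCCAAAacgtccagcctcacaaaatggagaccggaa
Cdc6: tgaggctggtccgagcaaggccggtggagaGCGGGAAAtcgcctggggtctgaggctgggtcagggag

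Among mitosis genes, Bub1b, a spindle checkpoint kinase gene, lay between 10.48 and 10.86 (median 10.75) at 0 h and between 12.05 and 12.34 (median 12.12) at 24 h, 2.74-fold higher (adjusted p = 1.11e-20, limma). Aurka, the Aurora A kinase gene, rose 2.34-fold, from 9.92 to 10.24 (median 10.03) to 11.21 to 11.43 (median 11.26). Anln, which encodes the cytokinesis protein anillin, rose by 1.40 (second probe 0.61), and Melk, Ckap2 and Dlgap5 rose by 1.28, 1.22 and 1.18. The second probes of Melk and Dlgap5 rose by 0.56 and 0.23. Pttg1, the securin gene, did not pass (0.02, adjusted p = 0.809, limma), with its probe detected on 2 of 6 arrays at 0 h and 4 of 6 at 24 h.

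Of 25 regulators of G1 12 were higher and 8 lower, against 29.2% and 37.8% of all genes, with a median of 0.02. Ccne2, the cyclin E2 gene that opens the S phase, went from 7.88 to 8.16 (median 8.01) to 9.25 to 9.56 (median 9.38), 2.63-fold (adjusted p = 3.38e-20, limma), and Ccnd1, the cyclin D1 gene, rose 1.46-fold. Ccnd2, another of the D cyclin genes, moved oppositely and was 2.17-fold lower, from 8.15 to 8.33 (median 8.26) to 7.02 to 7.27 (median 7.09). Cdkn1c, which encodes the cyclin-dependent kinase inhibitor p57, was 2.54-fold lower, from 11.68 to 12.06 (median 11.83) to 10.30 to 10.75 (median 10.46). Its means at 48 h and 72 h were 12.31 and 14.58, above 0 h. Cdkn1a, the p21 gene, lay between 12.79 and 13.03 at 0 h and between 12.76 and 12.99 at 24 h by its brightest probe (adjusted p = 0.209, limma), while its second probe fell by 0.67. Rbl1 rose by 0.60 by its brightest probe and changed by -0.07 by its second.

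Ribosome biogenesis genes, many of them MYC targets, rose alongside. Of 25 tested 24 were higher and 0 lower, 14 at least 1.5-fold, with a median of 0.61 and arrays that did not overlap for 21. Over all genes 29.2% were higher, 8.29% by at least 1.5-fold, and 20.5% were higher without overlap. Under the methods' t-test, Bonferroni adjustment left 14. Ncl, the nucleolin gene, lay between 9.38 and 9.66 (median 9.40) at 0 h and between 10.73 and 11.01 (median 10.88) at 24 h, 2.65-fold higher (adjusted p = 1.85e-22, limma). Nop56 and Gar1, parts of the complexes that modify ribosomal RNA, rose 2.25-fold and 2.02-fold, Wdr43 2.21-fold, and Gnl3 1.93-fold, and Nhp2 rose by 0.93 on the log2 scale. Pes1 did not pass (0.10, adjusted p = 0.106).

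Among the times with RANKL, the medians of the division lists were above 0 h at 24 h only. Per array, the median of the replication list lay between 0.70 and 0.79 above the 0 h means at 24 h, between -1.31 and -1.15 at 48 h and between -1.44 and -1.28 at 72 h. The mitosis list gave 0.77 to 0.84, -1.43 to -1.25 and -1.88 to -1.77, and ribosome biogenesis 0.56 to 0.75, -0.50 to -0.39 and -0.35 to -0.29. These later values are a description of the same lists, without a test.

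**Figure D4:**
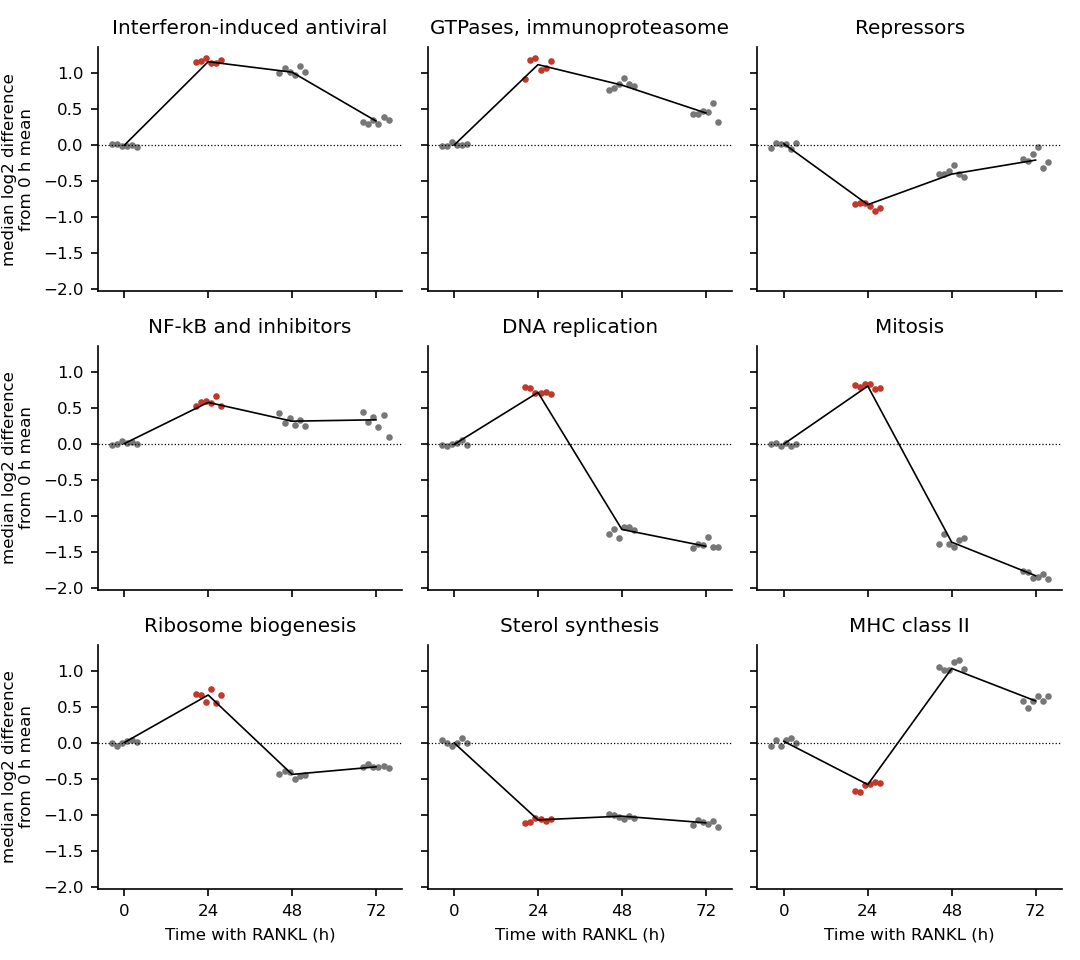
Median log2 difference of 9 gene lists from their 0 h means (y axis) on each of the 24 arrays by hours with RANKL (x axis), red at 24 h, with a line through the medians of each time. Replication, mitosis and ribosome biogenesis lists rise at 24 h and lie under the 0 h level at 48 h and 72 h, antiviral genes recede by 72 h, and sterol genes stay low.

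Sterol synthesis genes fell together. Of 16 tested 15 were lower and 1 higher, against 37.8% and 29.2% of all genes, and the median was -1.08. At least 1.5-fold lower were 12, against 9.71% of all genes. The arrays did not overlap for any of the 16, where 26.3% of all genes were lower and 20.5% higher without overlap. SREBP2, encoded by a gene of the list, drives these enzymes when sterols are scarce. Cyp51, lanosterol demethylase, lay between 11.38 and 11.76 (median 11.57) at 0 h and between 9.97 and 10.23 (median 10.15) at 24 h, 2.73-fold lower (adjusted p = 7.30e-22, limma). Dhcr7, the last enzyme of cholesterol synthesis, Mvd and Insig1 were 2.71-fold, 2.63-fold and 2.24-fold lower. Fdps, the target of bisphosphonate drugs in osteoclasts, fell by 1.27 (second probe -0.42) and Lss by 1.70 (second probe -0.07). Abcg1, which exports cholesterol, was the member that rose, 1.21-fold. The per-array list medians were -1.11 to -1.04 at 24 h and -1.17 to -1.07 at 72 h.

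MHC class II antigen presentation was lower for a day and higher later. Of 11 tested genes 9 were lower, 1 higher and 1 did not pass, against 37.8% lower and 29.2% higher over all genes. The list median was -0.61. H2-Ab1 lay between 11.87 and 12.18 (median 12.12) at 0 h and between 10.81 and 11.02 (median 10.95) at 24 h, 2.21-fold lower (adjusted p = 4.69e-20, limma), with a mean of 13.21 at 48 h, and its second probe fell by 0.56. H2-Aa and H2-Eb1 were 2.16-fold and 1.96-fold lower, Ciita, the gene of the class II transactivator, 1.19-fold and the costimulator gene Cd86 1.49-fold. Cd40 rose 1.36-fold. Cd80 lay between 7.75 and 8.05 at 0 h and between 7.81 and 8.18 at 24 h (adjusted p = 0.183, limma).

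Of 29 cytokine and chemokine genes 18 were lower and 8 higher, where 37.8% of all genes were lower and 29.2% higher. Ccl3 and Ccl4, inflammatory chemokine genes, went from 12.65 to 12.92 (median 12.78) to 11.24 to 11.51 (median 11.38) and from 13.92 to 14.23 (median 13.94) to 12.60 to 12.80 (median 12.69), falls of 2.65-fold (adjusted p = 7.65e-23, limma) and 2.49-fold. Il1b was detected on all 6 arrays at 0 h and on none at 24 h, at least 2.33-fold lower, and Vegfa was 2.30-fold lower. Ccl6 and Pf4, the latter a platelet chemokine, were 2.06-fold and 2.01-fold lower, next to the falls of neutrophil and megakaryocyte markers given above. Cxcl16, a membrane-bound chemokine gene, rose from 9.40 to 9.54 (median 9.45) to 11.75 to 12.09 (median 11.84), 5.33-fold by its brightest probe and by 1.06 on the log2 scale by its second. Ccl5, Ccl12 and Il1rn, the interleukin-1 receptor antagonist gene, rose 2.07-fold, 1.97-fold and 1.94-fold.

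Of 23 effector genes of the mature osteoclast 11 were higher and 8 lower, against 29.2% and 37.8% of all genes. Mmp14, a membrane-bound metalloproteinase gene, lay between 7.81 and 8.12 (median 7.97) at 0 h and between 10.02 and 10.23 (median 10.06) at 24 h, 4.41-fold higher (adjusted p = 3.28e-28, limma). Dcstamp, which fusion needs, was 3.08-fold higher and Itgav, an integrin subunit gene, 1.94-fold. Ocstamp and Car2, carbonic anhydrase II, were detected on no array at 0 h and on all 6 at 24 h, at least 1.38-fold and 1.47-fold higher. Acp5, the TRAP gene, was detected on 1 of 6 arrays at 0 h and rose by 0.63. Atp6v1a, which encodes a proton pump subunit, was 1.67-fold lower, Ostm1 1.55-fold and Cd9, a tetraspanin gene, 1.69-fold, and their means at 48 h (12.46, 12.72 and 13.42) were above those at 0 h (12.07, 12.65 and 13.35).

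Of 21 macrophage markers 5 were higher and 11 lower, against 29.2% and 37.8% of all genes. Fcgr3, an Fc gamma receptor gene, lay between 12.73 and 12.98 (median 12.87) at 0 h and between 11.15 and 11.44 (median 11.29) at 24 h, 2.96-fold lower (adjusted p = 1.83e-24, limma), and its mean was 13.44 at 48 h. Mrc1, the mannose receptor gene, was 1.76-fold lower and Tlr2 2.06-fold higher.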

How the data were processed

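Probe signals came from Illumina mouse bead arrays. The authors deposited signal intensity per probe, with a detection p-value, without normalization between arrays. A table of the authors' processed log2 values served as an alternative. The methods name log transformation and quantile normalization, but the array medians of this table differ, so it was not quantile normalized as deposited. The paper and the labels name different labelling kits. Array medians at 0 h and 24 h were 95.7 to 114, and 15781 to 17109 probes were detected per array. Precision is limited by how many arrays there were.

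The log2 signals were quantile normalized over 24 arrays with limma 3.58.1 in R 4.3.3, without background correction. Of 45281 probes, 34885 have 1 gene symbol in the annotation used here, 18 several and 10378 none, and of the first 34807 were found by Entrez ID in GRCm38.p6. A probe was kept if its detection p fell under 0.05 in 3 or more of the 6 arrays of any time (18346, of which 15558 have 1 gene), and the brightest kept probe stands for its gene. This matters for 3834 of the 9917 genes. Each gene was fitted over the 4 times (lmFit, contrasts, eBayes with a trend, 20 residual degrees of freedom), with Benjamini-Hochberg adjustment over all genes. Fold bounds apply where a probe was detected on no array of a time. Between arrays of a time r over genes was 0.9946 to 0.9982, and between 0 h and 24 h 0.9606 to 0.9646.

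The members, lists and alternatives were chosen with earlier results of these data known. The rule for named genes allows every tested member of the signalling, regulator and interferon machinery lists. From the other lists it takes up to 6 of the largest rises, up to 6 of the largest falls and up to 3 that did not pass. It adds the 15 largest rises and 15 largest falls over all genes with arrays that do not overlap, and the defining markers. List members without a kept probe were not analysed here. Alternatives were background correction, scaling, probe filters, the probe chosen, the test (including the methods' t-test), the arrays fitted, the replicate number as a block and each array left out. On simulated data the fit recovered 80% of genes changed 1.2-fold and 100% of those changed 1.5-fold, with 13 false among 203 calls. Figures were drawn with matplotlib 3.10.9.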

Additional observations from a re-analysis of the deposited data

Results flagged for a closer look

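Among 434 groups of 6 arrays (the named genes at 0 h and at 24 h), 14 had 1 array whose gap to the nearest other relative to the group's range was over Dixon's 95% critical value, and chance flags about 1 in 20 groups. At 24 h, replicate 3 was lowest for Fos (0.647 of the range, log2 signal 11.84 against 12.16 for the nearest) and highest for Cd207 (0.724) and Mx1 (0.663). Replicate 4 was highest at 24 h for Irf3 (0.698) and Mcm10 (0.697), replicate 5 for Rpa3 (0.664), replicate 6 for Ifitm1 (0.666) and replicate 1 for Egr2 (0.646). At 0 h, replicate 1 was lowest for Klf2 (0.637) and Mpo (0.713) and highest for Rsad2 (0.711). Replicate 2 was lowest at 0 h for Btbd11 (0.707), replicate 4 for Relb (0.654), and replicate 5 was highest for Igtp (0.628). Without any 1 of the 12 arrays, the calls of these genes that had passed were kept, and Irf3 and Rpa3 had not passed.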

How the results depend on the processing

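Of 200 named genes that passed, 186 passed in the same direction under every one of the 27 alternatives other than the methods' t-test with Bonferroni adjustment, which ended 44 calls. That adjustment left 1047 genes higher and 1240 lower, 5 of 8 repressors and 14 of 25 ribosome biogenesis genes. With Benjamini-Hochberg adjustment the methods' t-test gave 2753 and 3600. Leaving out each of 12 arrays gave 2809 to 2881 genes higher and 3652 to 3708 lower. With 75th percentile scaling, 2261 genes were higher and 4763 lower. Cdk4 (-0.09, adjusted p = 0.18, limma) then lost its call, and B2m (-0.14, adjusted p = 0.0497, limma), which had not passed before, passed as lower. By the second-highest probe, Ifitm1 (-1.80) and Cdk4 (-0.21, adjusted p = 0.00431, limma) passed as lower, opposite to their brightest probes. Btbd11 (-0.07), Rfc5 (-0.12) and Rbl1 (-0.07) did not pass by that probe (adjusted p = 0.462, 0.142 and 0.24, limma). Csf1r, not past the test by its brightest probe, passed as higher by its second (0.51) and by the mean of the kept probes (0.24). With that mean Ifitm1 passed as lower (-0.33), and Cdk4 (-0.05) did not pass (adjusted p = 0.348, limma). Ifitm1 and Cdk4 rose by 0.46 and 0.12 by their brightest probes, and the call of Cdk4 was kept in 12 of the 27 alternatives and lost without any 1 of 6 of the 12 arrays. The cause of these differences between probes was not tested. Dim probes were most affected by background correction, where Mycl rose by 5.95 and Car2 by 1.61 after normexp, in place of 4.54 and 0.83.

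Nothing in the labels states that replicate numbers pair the arrays, and the main test did not use them. Deviations of same-numbered arrays correlated at 0.274, 0.0444, 0.268, 0.492, 0.445 and 0.101 over genes. Replicates 1, 3, 4 and 5 matched their own number best, and replicates 2 and 6 matched another number best. With the replicate number as a block, 3010 genes were higher and 3919 lower, and 0 of the main calls were lost.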
